A study of Rattus norvegicus with 6 samples.

Results

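Laminins, nidogens and perlecan, the glycoproteins and the proteoglycan that build the basement membrane together with type IV collagen, were examined in the livers of rats with CCl4-induced fibrosis. The members were 9 genes chosen by name: the laminin alpha chain genes Lama2, Lama4 and Lama5, the beta chain genes Lamb1 and Lamb2, the gamma chain gene Lamc1, the nidogen genes Nid1 and Nid2, and the perlecan gene Hspg2. Of the 19616 genes with expression values, 8 carried 1 of these symbols, and perlecan was found under the clone-based name AABR07073181.1, which RefSeq pairs with Hspg2, so that 9 of 9 members were measured. The FL group was 3 male SD rats (FL2, FL5 and FL12) injected with CCl4, a solvent that injures hepatocytes, mixed with olive oil, over 5 weeks with 2 injections per week of 2 mL/kg. The CL group was 3 male SD rats (CL5, CL6 and CL7) given the same volume of olive oil alone. Total liver RNA depleted of ribosomal RNA was sequenced with 1 library per rat, and expression was given as FPKM (fragments of a gene scaled to transcript length and to the mapped fragments of the library). Whole liver tissue was used, so a lower number of cells of a type and less RNA in each of those cells cannot be told apart, and the same holds for more cells and more RNA per cell.

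Laminins are trimers of 1 alpha, 1 beta and 1 gamma chain, which are secreted together and bind integrins and dystroglycan. Many, but not all, are cross-shaped and polymerise on the cell surface. Nidogens bind the gamma 1 chain and type IV collagen, and perlecan, a large proteoglycan carrying heparan sulfate, binds nidogens and growth factors. The healthy liver sinusoid has little continuous basement membrane, and the deposition of laminin and type IV collagen in the space of Disse is a classical histological feature of liver fibrosis.

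The tissue label was checked against hepatocyte markers before the groups were compared. All 10 of the 10 hepatocyte markers were above 0 in every rat. Their summed FPKM was 46100 in CL5, 43700 in CL6 and 44180 in CL7, and 34848 in FL2, 36904 in FL5 and 36268 in FL12, with albumin (Alb) and transthyretin (Ttr) the most abundant. With limma 0 of the 10 were DEGs (differentially expressed genes), 1 was without FL2, and at an unadjusted p under 0.05 2 were higher and 0 lower. In 4 of the 10, Alb, Apob, Ttr and Hnf4a, every FL rat was below every CL rat, and in 1, Apoa1, every FL rat was above. The median log2 fold change of the list was −0.10, and it was −0.33 with median scaling, 0.27 with quantile normalization and −0.06 without CL5. The log2 fold change of Alb had a standard error of 0.98. The FPKM of all genes summed to 309425 in CL5, 340467 in CL6 and 315259 in CL7, and to 309226 in FL2, 272350 in FL5 and 272110 in FL12. Read totals of the single rats were not used here, so depth is given only relative to CL5. Steps in the low FPKM of U6 small nuclear RNA genes put the depth relative to CL5 at 0.656 in CL6, 0.840 in CL7, 0.677 in FL2, 0.750 in FL5 and 0.677 in FL12. These are approximate, since 63.8% (FL5) to 88.6% (CL6) of the low U6 values, and 72.1% in CL5, were whole multiples of the step within 0.1 of a step.

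All 9 members had a higher mean in the FL group, and 5 were upregulated DEGs: Lama5, Nid1, Lamb1, Lama2 and Hspg2. A DEG had an adjusted p under 0.05 (limma, Benjamini-Hochberg method, 14864 genes tested) and a fold change of at least 2 on the log2(FPKM + 0.1) scale, which understates the change of genes with low FPKM. By the same limits 9.29% of all genes tested were upregulated and 0.935% downregulated, and 0 of the 9 members were downregulated (limma), also at an unadjusted p under 0.05, where 8 were higher. At that limit 31.5% of all genes tested were higher and 4.04% lower. Without the limit on the fold change, 7 members passed, beside 16.9% of all genes tested that were higher in the FL group. In 8 of the 9 members every FL rat was above every CL rat, which was also the case for 35.7% of all genes tested. The median log2 fold change of the members was 1.07, against 0.29 for all genes tested, of which 77.87% were positive. Median scaling moved the median of all genes to 0.08 and quantile normalization moved it to −0.04. Relative to these medians the members stood 0.78 higher without scaling, 0.77 higher with median scaling and 0.68 higher with quantile normalization, and all 9 were above the median of all genes each time.

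The count of 7 members at an adjusted p under 0.05 became 4 with median scaling, quantile normalization, no filter on low values or no trend in limma, 9 without FL2, 4 without CL6, 3 without CL5 or FL12, and 1 without CL7 or FL5. The number of upregulated members depended on single rats and on the scale. It was 7 without FL2, 4 without CL6, 3 without CL5 or FL12, and 1 without CL7 or FL5, and that 1 gene was Nid1. The share of upregulated genes among all genes tested moved in the same direction, from 9.29% to 12.3% without FL2, 6.70% without CL6, 6.25% without CL5, 6.50% without FL12, 4.95% without CL7 and 5.06% without FL5. The number of upregulated members was 4 with no filter, a mean of at least 1 FPKM or no trend, 2 with a pseudocount of 1, and 3 with median scaling or quantile normalization, while the share over all genes was 3.11% with that pseudocount and 5.56% and 3.07% with these scalings. Over all genes, 1381 were upregulated and 139 downregulated as deposited, against 456 and 228 with quantile normalization. FL2 stood apart from the other FL rats, being the lowest FL rat in 9 of the 9 members. It was also the lowest in 51.22% of all genes tested and in 67.49% of the 1381 upregulated genes. The FPKM of FL2 divided by the CL mean lay between 0.911 for Nid2 and 2.57 for Lama5, whereas in FL12 the quotient lay between 1.61 for Lamc1 and 7.25 for Lama5.

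**Figure D1:**
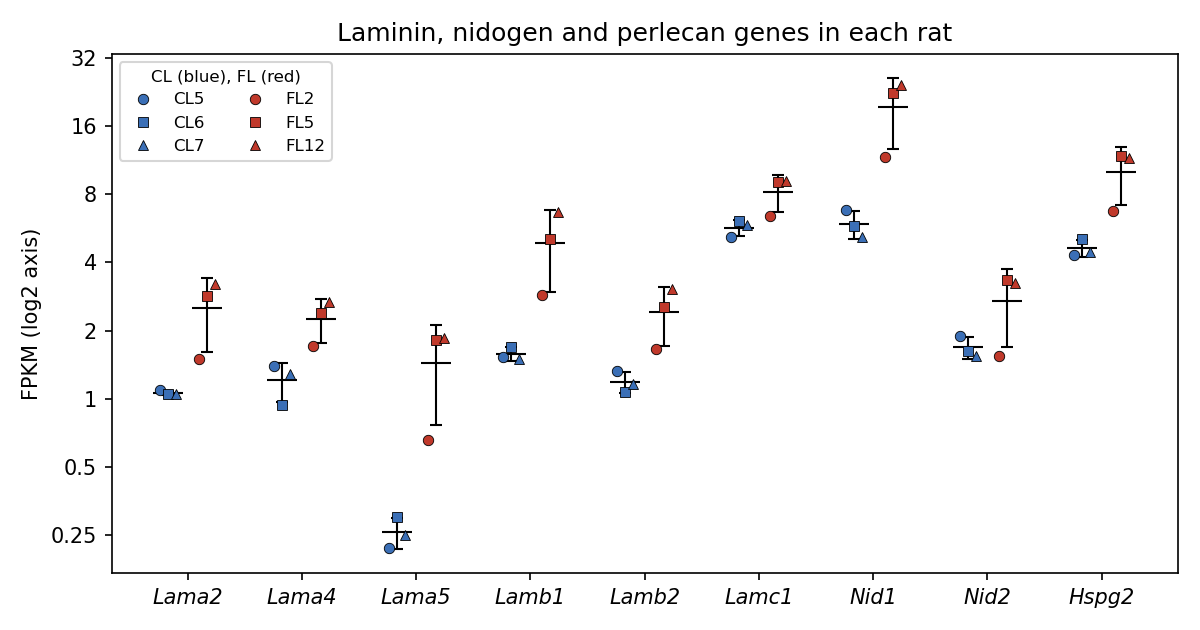
FPKM of the 9 genes in each rat on a log2 axis, with CL rats in blue and FL rats in red, a horizontal line at the group mean and bars of 1 SD (n = 3 rats per group). The FL and CL rats do not overlap except for Nid2, where FL2 equals CL7 at 1.54 and lies below CL5 and CL6, and FL2 (red circle) is the lowest FL rat in all 9 genes.

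Among the alpha chains, which carry the cell-binding end of the trimer, Lama5 (ENSRNOG00000053691, chromosome 3) was the least abundant member and had the largest log2 fold change of the 9. The alpha 5 chain is typical of the basement membranes of epithelia and vessels. Lama5 read 0.22 FPKM in CL5, 0.30 in CL6 and 0.25 in CL7, and 0.66 in FL2, 1.81 in FL5 and 1.86 in FL12. The FL rats were all above the CL rats, with FL2 at well under the level of the other FL rats. Mean FPKM rose to 1.44 ± 0.679 from 0.257 ± 0.0404 (SD, n = 3 rats each), and limma with Benjamini-Hochberg adjustment gave a log2 fold change of 2.0 ± 0.39 (SE) at an adjusted p of 0.0140. The call was kept in 10 of 13 alternatives, with adjusted p between 0.00267 and 0.0570. It was lost without CL7 (adjusted p = 0.0542, limma), without FL5 (adjusted p = 0.0570, limma) and, by the fold limit, with a pseudocount of 1. With that pseudocount Lama5 no longer had the largest log2 fold change. It was 0.917, below those of Nid1 (1.506), Lamb1 (1.135) and Hspg2 (0.944).

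Lama2 (ENSRNOG00000011134, chromosome 1) encodes the alpha 2 chain, the main alpha chain of the basement membrane around muscle fibres and Schwann cells. It read 1.09 FPKM in CL5 and 1.05 in both CL6 and CL7, and 1.49 in FL2, 2.85 in FL5 and 3.20 in FL12. The CL rats lay close together, and the FL rats were spread over a wider range above them. Mean FPKM rose to 2.51 ± 0.903 from 1.06 ± 0.0231, and limma with Benjamini-Hochberg adjustment gave a log2 fold change of 1.10 ± 0.28 (SE) at an adjusted p of 0.0327. This was the least stable of the 5 calls, being kept in 4 of 14 alternatives with adjusted p from 0.00386 to 0.139. Leaving out any rat other than FL2 ended it, with adjusted p of 0.0825 without CL5, 0.0855 without CL6, 0.103 without CL7, 0.109 without FL5 and 0.0942 without FL12 (limma). It also ended with no filter (adjusted p = 0.0561), no trend (0.0524), median scaling (0.0625) and quantile normalization (0.139), and, by the fold limit, with a pseudocount of 1 (limma). Lama4 (ENSRNOG00000000599, chromosome 20), the gene of the alpha 4 chain of vessel walls and other mesenchymal tissue, had 1.39 FPKM in CL5, 0.94 in CL6 and 1.28 in CL7, and 1.71 in FL2, 2.39 in FL5 and 2.66 in FL12. The groups did not overlap, but the log2 fold change of 0.85 ± 0.23 (SE) with an adjusted p of 0.0405 in limma was under the 2-fold limit. With median scaling its adjusted p was 0.105 and with quantile normalization 0.279 (limma). Without FL2 Lama4 passed the 2-fold limit, at 1.02, and without CL5, CL6, CL7, FL5 or FL12 its adjusted p lay between 0.0685 and 0.121 (limma).

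Of the beta chains, Lamb1 (ENSRNOG00000005678, chromosome 6) was upregulated and Lamb2 stayed under the 2-fold limit. Lamb1 encodes the beta 1 chain, which is found in many tissues and early in development. It read 1.53 FPKM in CL5, 1.70 in CL6 and 1.5 in CL7, and 2.87 in FL2, 5.07 in FL5 and 6.70 in FL12. Even the lowest FL rat was well above the CL rats, whose values differed little. Mean FPKM rose to 4.88 ± 1.92 from 1.58 ± 0.108, and limma with Benjamini-Hochberg adjustment gave a log2 fold change of 1.49 ± 0.28 (SE) at an adjusted p of 0.0127. The call was kept in 12 of 14 alternatives and missed the limit without CL7 (adjusted p = 0.0521) and without FL5 (adjusted p = 0.0522, limma both times). Lamb2 (ENSRNOG00000047768, chromosome 8), the gene of the beta 2 chain of the neuromuscular junction and the kidney filter, had 1.32 FPKM in CL5, 1.07 in CL6 and 1.16 in CL7, and 1.65 in FL2, 2.54 in FL5 and 3.05 in FL12. All FL rats were above the CL rats, with a log2 fold change of 0.93 ± 0.24 (SE) with an adjusted p of 0.0350 in limma. With median scaling the adjusted p of Lamb2 was 0.0754 and with quantile normalization 0.196 (limma). Without FL2 the log2 fold change of Lamb2 was 1.17 and passed both limits, and without any 1 of the other rats its adjusted p lay between 0.0714 and 0.109 (limma).

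Lamc1 (ENSRNOG00000002680, chromosome 13) encodes the gamma 1 chain, which most laminin trimers contain and which holds the nidogen-binding site. Its FPKM was 5.18 in CL5, 6.10 in CL6 and 5.82 in CL7, and 6.4 in FL2, 9.04 in FL5 and 9.15 in FL12. The groups did not overlap, but FL2 was only just above CL6. The mean was 5.70 ± 0.472 FPKM in the CL group and 8.20 ± 1.56 in the FL group, with a log2 fold change of 0.50 ± 0.17 (SE), the smallest of the 9 members, and an adjusted p of 0.0714 (limma). Its 95% confidence interval ran from 0.12 to 0.88, so a 2-fold difference lay outside the interval. Over the alternatives the adjusted p of Lamc1 lay between 0.0146 and 0.346, and the lowest value came from leaving out FL2. The log2 fold change of Lamc1 was 0.28 with median scaling and 0.23 with quantile normalization. With quantile normalization, with a pseudocount of 1 or without FL5, Nid2 and not Lamc1 had the smallest log2 fold change of the members.

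The nidogens differed from each other within every rat. Nid1 (ENSRNOG00000002461, chromosome 17), the gene of nidogen 1, which bridges the laminin and collagen IV networks, read 6.82 FPKM in CL5, 5.76 in CL6 and 5.15 in CL7, and 11.65 in FL2, 22.40 in FL5 and 24.15 in FL12. The FL rats were far above the CL rats, and FL5 and FL12 were close to each other. Mean FPKM rose to 19.4 ± 6.77 from 5.91 ± 0.845, and limma with Benjamini-Hochberg adjustment gave a log2 fold change of 1.64 ± 0.27 (SE) at an adjusted p of 0.00808. Nid1 was the only member called in all 14 alternatives, with adjusted p between 0.00122 and 0.0392. Nid2 (ENSRNOG00000000341, chromosome 15) encodes nidogen 2, a related protein with partly overlapping binding partners. It had 1.90 FPKM in CL5, 1.63 in CL6 and 1.54 in CL7, and 1.54 in FL2, 3.35 in FL5 and 3.24 in FL12. The groups overlapped, since FL2 was below CL5 and CL6 and equal to CL7, whereas FL5 and FL12 were above all CL rats. The log2 fold change of Nid2 was 0.58 (standard error 0.29, adjusted p = 0.196, limma). It was 0.36 with median scaling, 0.17 with quantile normalization, 0.39 without FL5 and 0.42 without FL12. Without FL2 it was 0.93 with an adjusted p of 0.0119 (limma), within a range of 0.0119 to 0.713 over its alternatives.

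Hspg2 (ENSRNOG00000021437, chromosome 5), the perlecan gene, read 4.32 FPKM in CL5, 5.05 in CL6 and 4.45 in CL7, and 6.75 in FL2, 11.79 in FL5 and 11.60 in FL12. FL5 and FL12 were nearly equal, and FL2 lay between them and the CL rats. Mean FPKM rose to 10.05 ± 2.86 from 4.61 ± 0.389, and limma with Benjamini-Hochberg adjustment gave a log2 fold change of 1.07 ± 0.22 (SE) at an adjusted p of 0.0159. The call was kept in 7 of 14 alternatives, with adjusted p between 0.00238 and 0.0617. Without CL5, CL7, FL5 or FL12 the adjusted p was 0.0550, 0.0617, 0.0607 and 0.0517 (limma), and with median scaling or quantile normalization Hspg2 kept an adjusted p under the limit (0.0311 and 0.0479, limma) but not a 2-fold change, as also with a pseudocount of 1 (log2 fold change 0.94, adjusted p 0.0197).

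In order of FPKM level, the CL group ran from Nid1 (mean 5.91) through Lamc1, Hspg2, Nid2, Lamb1, Lama4, Lamb2 and Lama2 to Lama5 (mean 0.257). In that order the CL rats of neighbouring genes did not overlap between Lamc1 and Hspg2, Hspg2 and Nid2, Lamb1 and Lama4, or Lama2 and Lama5, and overlapped between all the other neighbours. In the FL group the order by FPKM was Nid1, Hspg2, Lamc1, Lamb1, Nid2, Lama2, Lamb2, Lama4 and Lama5, and every pair of neighbours overlapped. By mean FPKM over the 6 rats, Nid1 stood at the 82.25th percentile of the 13454 protein-coding genes tested, Hspg2 at 70.88 and Lamc1 at 69.44. Lama5 was at the 22.03rd percentile, and the other 5 members lay between 34.02 (Lama4) and 49.09 (Lamb1).

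Ratios within a rat do not depend on scaling between rats, and FPKM is given per length, so FPKM levels of different chains were set against each other in each rat. These ratios are descriptions with no test. The share of all gene pairs whose ratio separates the groups was not counted. The summed FPKM of the alpha chains (Lama1 to Lama5) was 5.03, 3.8 and 3.73 in CL5, CL6 and CL7 and 5.51, 10.24 and 12.17 in FL2, FL5 and FL12. Lama5 made up 4.37%, 7.89% and 6.70% of that sum in the CL rats and 11.98%, 17.7% and 15.3% in the FL rats, so the groups did not overlap, and FL2 was on the side of the FL group. The shares of Lama2, Lama3 and Lama4 overlapped between the groups, and Lama3, an alpha chain outside the 9 members, held the largest mean share in both the CL group (38.3% ± 7.82) and the FL group (32.1% ± 3.51), although Lama4 was above Lama3 in CL7 and in FL2. Lamb1 held 51.9%, 55.2% and 54.3% of the summed FPKM of the beta chains in CL5, CL6 and CL7 and 61.9%, 65.4% and 67.5% in FL2, FL5 and FL12. The share of Lamb2 overlapped between the groups, and that of Lamb3 was lower in every FL rat. The Lamb3 share was 3.39%, 10.1% and 3.62% in the CL rats and 2.59%, 1.81% and 1.81% in the FL rats. In FPKM Lamb3 was low and overlapped between the groups. It read 0.10, 0.31 and 0.10 in CL5, CL6 and CL7 and 0.12, 0.14 and 0.18 in FL2, FL5 and FL12. The ratio of Lamb1 to Lamb2 was 1.16, 1.59 and 1.29 in the CL rats and 1.74, 2.0 and 2.20 in the FL rats. The groups did not overlap in this ratio, but FL2 was close to CL6, and it was not among the planned ratios.

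The ratio of Nid1 to Nid2 separated the groups without overlap. It was 3.59 in CL5, 3.53 in CL6 and 3.34 in CL7, and 7.56 in FL2, 6.69 in FL5 and 7.45 in FL12. FL2, the lowest FL rat by level in both genes, had the highest ratio. The ratio of Nid1 to Lamc1 was 1.32, 0.944 and 0.885 in the CL rats and 1.82, 2.48 and 2.64 in the FL rats. For Hspg2 to Lamc1 it was 0.834, 0.828 and 0.765 in the CL rats and 1.05, 1.30 and 1.27 in the FL rats, so perlecan was below the gamma 1 chain in FPKM in every CL rat and above it in every FL rat.

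**Figure D2:**
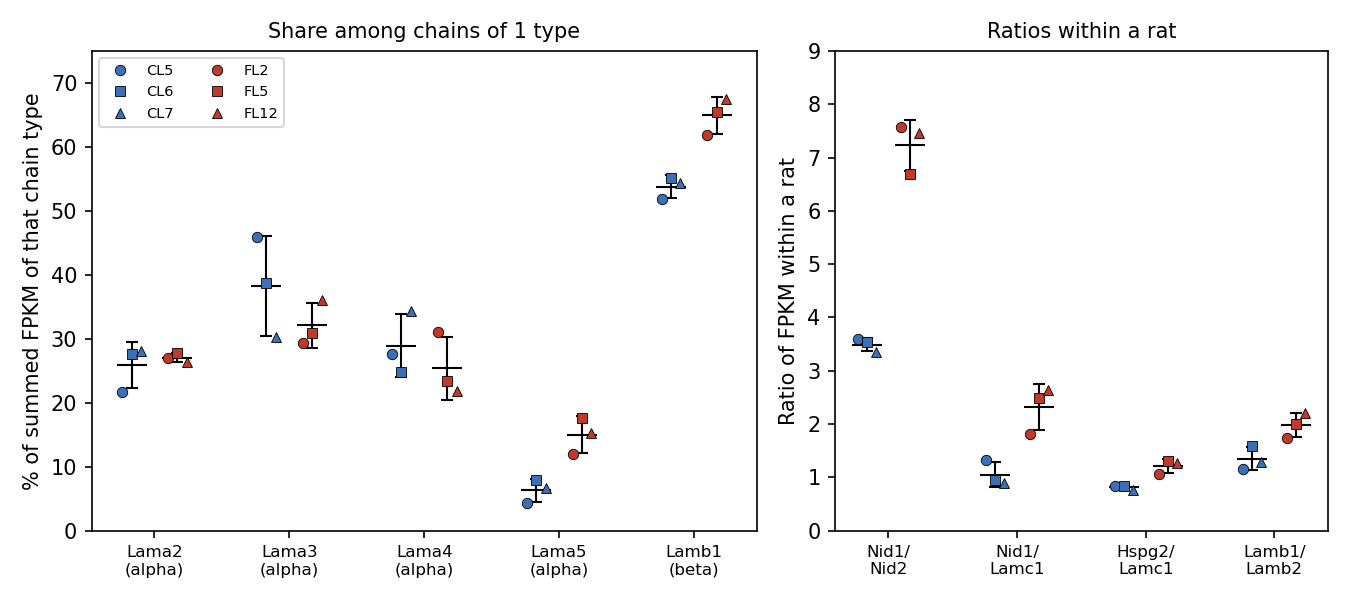
Left, share of a chain in the summed FPKM of all alpha or all beta chains of the same rat, in percent; right, ratios of FPKM within a rat. Blue symbols are CL rats and red symbols FL rats, with the group mean and bars of 1 SD (n = 3 rats per group); the shares of Lama5 and Lamb1 and all 4 ratios do not overlap between the groups, whereas the shares of Lama2, Lama3 and Lama4 do.

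To place the members among all genes, the 10535 genes whose mean reached 1 FPKM, which Lama5 did not, were ranked by how closely their profile over the 6 rats followed that of Lamc1, Nid1 and Hspg2. The measure was the root mean square difference of log2(FPKM + 0.1) after centring each gene on its mean over the rats. Profiles were not scaled, so a rank reflects the size of the change as well as its pattern over the rats. Closest to Nid1 were Fam171b (0.101), Col4a2 (0.105) and Col4a1 (0.109), so 2 of the 3 were the type IV collagen chains of the basement membrane, and Lamb1 came 26th (0.167). Closest to Hspg2 were Ehd2 (0.0608), Slc36a4 (0.0639) and Plxna1 (0.0742), with Lama2 the nearest other member in 20th place. Closest to Lamc1 were Anapc10 (0.0368), Tle3 (0.0421) and Fmo4 (0.0452), and the nearest other member, Nid2, was in place 3194.

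**Figure D3:**
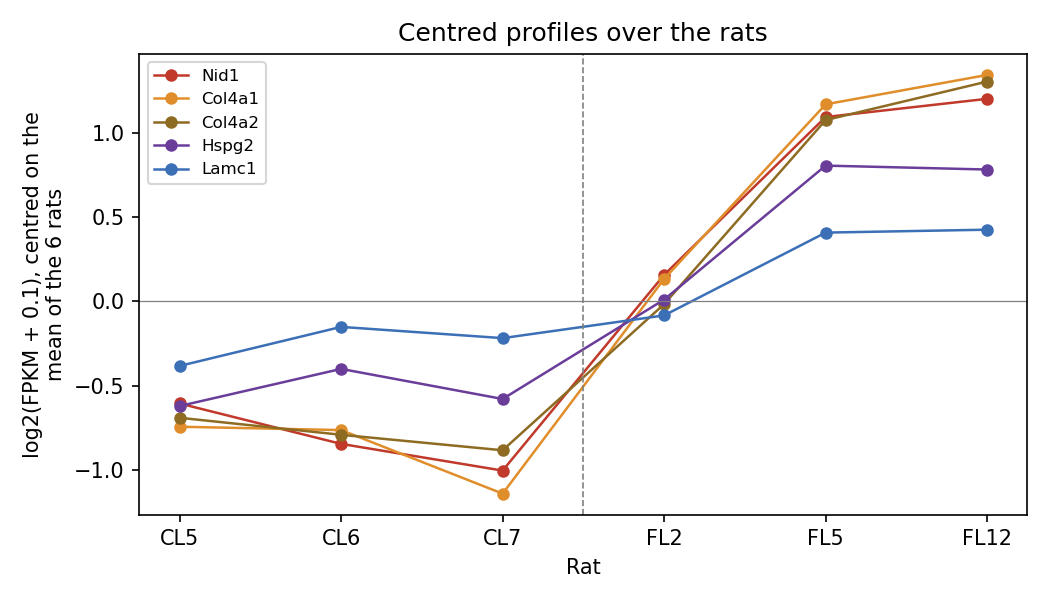
Centred log2(FPKM + 0.1) of Nid1, Col4a1, Col4a2, Hspg2 and Lamc1 in the 6 rats (y axis, log2 units; lines join the values of 1 gene and do not stand for an order of rats). Nid1 and the collagen chains lie close together in each rat, and Lamc1 has the flattest profile of the 5 genes.

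Other components of the basement membrane were counted with the same fit. Of 5 basement membrane collagen genes tested with limma, 2 were upregulated and 0 downregulated (4 and 0 at an unadjusted p under 0.05), with a median log2 fold change of 0.57. That median was 0.35 with median scaling, and without CL5, CL6 or CL7 it was 0.95, just above 1 and 0.85, where 6 genes passed the filter. The gene added there was near 0 FPKM in every CL rat and passed only through its FL values. Those medians are therefore not comparable with 0.57. Col4a1 rose from 8.57 ± 1.28 to 31.0 ± 12.1 FPKM (log2 fold change 1.77, adjusted p = 0.00911, limma) and Col4a2 from 5.58 ± 0.380 to 18.1 ± 7.57 FPKM (1.58, adjusted p = 0.0136, limma). These genes encode the chains of the main collagen IV trimer, and without CL7 or FL5 the list had 1 upregulated gene. Col18a1, the most abundant of the list, averaged 92.6 ± 1.13 FPKM in CL rats and 123 ± 12.5 FPKM in FL rats (adjusted p = 0.0619, limma). Lama3, the laminin alpha chain outside the members with the largest share, had a log2 fold change of 0.81 with an adjusted p of 0.166 in limma. Of the 3 laminin chain genes tested outside the members, 0 were upregulated with all rats and 2 without FL2.

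Of 17 linker and accessory genes of the basement membrane tested with limma, 7 were upregulated and 0 downregulated (11 and 0 at an unadjusted p under 0.05), with a median log2 fold change of 1.11 (0.60 with a pseudocount of 1 and 0.59 with quantile normalization). They were Fbln1 (2.53 on the log2 scale), Smoc2 (2.29), Frem1 (1.88), Sparc (1.49), Vwa1 (1.30), Loxl2 (1.29) and Pxdn (1.26). Sparc, a collagen-binding protein, was the most abundant and rose from 36.3 ± 1.58 to 108.8 ± 41.8 FPKM, and Smoc1, the next, averaged 18.3 FPKM in CL rats and 18.2 in FL rats. Pxdn encodes peroxidasin, which cross-links collagen IV. Without FL5, or with quantile normalization, 3 of these genes were upregulated.

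Receptors had a median log2 fold change of 0.37, beside 1.07 for the members and 0.29 for all genes tested. The receptor median was 0.15 with median scaling and −0.03 with quantile normalization, beside 0.08 and −0.04 for all genes. Without FL2, FL5 or FL12 it was 0.59, 0.25 and 0.18, and it was 0.19 with a pseudocount of 1 or a mean of at least 1 FPKM. Of 15 laminin receptor and cell-surface proteoglycan genes tested 0 passed both limits with limma, and without the fold limit 2 were higher and 1 lower (4 and 1 at an unadjusted p under 0.05). Itgb1, the beta subunit shared by most laminin-binding integrins, was higher by 0.71 on the log2 scale (adjusted p = 0.0148, limma) and Sdc3 by 0.61 (adjusted p = 0.0430, limma). Sdc4 fell by 0.80 (adjusted p = 0.0119, limma), from 96.3 ± 14.01 to 55.3 ± 5.74 FPKM, and passed the 2-fold limit with median scaling. Sdc2 was the most abundant, at 140.3 FPKM in the CL group and 123 in the FL group. Dag1, the dystroglycan gene, read 20.0 and 23.1 FPKM (adjusted p = 0.310, limma), and 0 of the 11 genes for the enzymes that put the laminin-binding sugar on dystroglycan passed the limits (4 were higher and 0 lower at an unadjusted p under 0.05, median 0.28, 0.06 with median scaling and −0.04 with quantile normalization, Pomgnt1 and Pomk most abundant). Without FL2, 1 receptor gene was upregulated.

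Perlecan carries heparan sulfate, and of 20 genes for its synthesis and editing tested with limma 2 were upregulated and 0 downregulated (7 and 0 at an unadjusted p under 0.05). Over all genes tested 9.29% were upregulated and 31.5% were higher at that unadjusted limit. The median of the list was 0.35, and it was 0.14 with median scaling, 0.03 with quantile normalization, 0.19 with a pseudocount of 1 and 0.12 with a mean of at least 1 FPKM. Sulf1, an extracellular sulfatase, rose from 0.313 ± 0.0208 to 1.30 ± 0.755 FPKM (log2 fold change 1.60, adjusted p = 0.0353, limma). Hs3st3a1, a sulfotransferase at very low level, averaged 0.0833 FPKM in the CL group and 0.387 in the FL group. It passed the filter of 0.1 FPKM only through its FL values. Its log2 fold change was 1.41 (adjusted p = 0.0461, limma). Neither call was kept without any 1 of CL5, CL6, CL7, FL5 and FL12, where 0 genes of the list were upregulated. Under 2-fold, Sulf2, Extl3 and Ext1 were higher by 0.78, 0.67 and 0.41 on the log2 scale. The most abundant genes were Ndst1 and Hs3st3b1, at 38.1 and 19.0 FPKM in the CL group and 32.3 and 18.3 in the FL group.

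Marker lists of cell types that could contribute these RNAs were read beside the members. Of 12 stellate cell or myofibroblast markers, 6 were upregulated (Col1a1, Col3a1, Des, Dcn, Rgs5 and Pdgfrb), 7 without the fold limit and 10 higher at an unadjusted p under 0.05, with a median log2 fold change of 1.59. Their summed FPKM was 102 in CL5, 105 in CL6 and 95.9 in CL7, and 243 in FL2, 605 in FL5 and 538 in FL12. Col3a1 and Col1a1 were the most abundant. FL2 was the lowest FL rat in this sum, as in the hepatocyte, smooth muscle, cholangiocyte, Schwann cell, cycling and mesothelial sums. In the endothelial, macrophage and lymphocyte sums FL2 was not the lowest. None of the 12 was at 0 in any rat, and their part in the result for the members was not tested. Pdgfrb, a marker of stellate cells and pericytes, rose from 2.79 ± 0.319 to 9.61 ± 3.57 FPKM, and Acta2, the actin of myofibroblasts, read 3.87 FPKM in FL2, next to 3.85 in the highest CL rat, and 17.3 in FL5 and 9.59 in FL12.

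Of 11 endothelial markers 1 was upregulated (Vwf), with a median of 0.33 that was 0.10 with median scaling and 0.08 with quantile normalization. Without the fold limit 3 passed (Vwf, Stab2 and Tie1), and at an unadjusted p under 0.05 5 were higher and 0 lower. Their summed FPKM was 90.4, 88.2 and 79.7 in CL5, CL6 and CL7 and 107, 96.8 and 104 in FL2, FL5 and FL12, and Kdr and Lyve1 were the most abundant. Vwf lost its call without any 1 of CL5, CL6, CL7, FL5 and FL12, where 0 markers were upregulated, and 2 were upregulated without FL2. Of 8 macrophage markers 3 were upregulated (Cd68, Csf1r and Marco), 5 without FL12, and 7 were higher and 0 lower at an unadjusted p under 0.05. Their summed FPKM was 128, 117 and 121 in the CL rats and 282 in FL2, 270 in FL5 and 150 in FL12. Clec4f and Cd5l were the most abundant. Of 5 smooth muscle markers 1 was upregulated (Lmod1) and 2 were higher at an unadjusted p under 0.05, with sums of 25.1, 24.6 and 21.6 in the CL rats and 24.9, 35.2 and 35.5 in the FL rats and Mylk and Smtn the most abundant. Without any 1 of CL5, CL6, CL7, FL5 and FL12 the number upregulated was 0, and without FL2 it was 2. None of the markers of these 3 lists was at 0 in any rat, and their part in the result was not tested.

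Of 8 cholangiocyte markers 0 were upregulated with limma (1 without FL2, and 2 at an unadjusted p under 0.05), with summed FPKM of 10.4, 13.4 and 10.4 in the CL rats and 12.1, 14.9 and 18.1 in FL2, FL5 and FL12. Epcam was the most abundant, and Cldn4 was listed at 0 in CL6. Of 5 cycling markers 1 was upregulated (Mki67, adjusted p = 0.0478, limma), 5 without FL2 and 0 without any 1 of the other rats, 4 were higher at an unadjusted p under 0.05, and the sums were 2.47, 4.45 and 2.80 in the CL rats and 3.46, 16.2 and 13.9 in the FL rats. Mki67 and Top2a were the most abundant and none of the 5 was at 0. Of the Schwann cell (2 tested), mesothelial (4) and lymphocyte (5) markers 0 were upregulated with limma, and 0, 1 and 2 were higher and 0 lower at an unadjusted p under 0.05. The mesothelial list had 3 of 4 markers with a negative log2 fold change and a median of −0.71 (−0.42 without CL6, −0.30 without FL5, −1.34 without FL12, −0.22 with a pseudocount of 1 and −1.25 with quantile normalization), with summed FPKM of 2.83, 3.64 and 2.95 in the CL rats and 0.970, 1.34 and 4.58 in FL2, FL5 and FL12. The lymphocyte list had 5 of 5 positive and a median of 0.96 (0.36 with quantile normalization, 0.44 with a pseudocount of 1 and 0.43 without FL5). In the Schwann cell list Sox10 was listed at 0 in at least 1 rat of each group, and Mbp was the most abundant. Msln and Upk3b led the mesothelial list, with 1 marker higher without FL2 and 1 lower without FL12, and Cd8a and Cd79a led the lymphocyte list, with 1 higher without FL12. The part of these cells in the result was not tested.

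The promoter windows of the members, several of which were upregulated, were searched for short motifs. RefSeq windows of 300 bases on build GRCr8 were matched for 7 of the 9 members, and Lamb2 and Nid2 were not used here. For Lama4, Lama5 and Lamc1 the window held 250 bases before the outer start of the gene and 50 after it, whereas it lay elsewhere for the other 4, beginning 3 bases before that start for Lamb1 and inside the gene for Nid1. Both strands were read. The GC box GGGCGG was found in 6 of the 7 windows (all but Lama4), against 33.06% of the 33469 windows of all genes, with 6 copies for Hspg2, 5 for Lamc1, 4 for Lama5, 2 for Lamb1 and Nid1 and 1 for Lama2. CCAAT was found in 2 windows (37.49% of all), TATAAA in 1 (14.22%), CAGACA, a SMAD-binding motif, in 1 (21.08%), TGANTCA, the AP-1 motif, in 0 (7.33%), CANNTG, the E-box, in 3 (72.1%) and GGAA, the ETS core, in 7 (95.79%). GC content was between 55.0% (Lama4) and 73.0% (Lama5), against a median of 51.67% for all windows, and a match describes letters in the window and no more. The windows with the most GC boxes are shown 5′ to 3′ with GC boxes on either strand in capitals, since they include Lama5 and Hspg2, which were upregulated, and Lamc1, which was not. They lie at chr3:187695925-187696224 on the minus strand (Lama5), chr5:154960596-154960895 on the plus strand (Hspg2) and chr13:68051937-68052236 on the minus strand (Lamc1).
Lama5: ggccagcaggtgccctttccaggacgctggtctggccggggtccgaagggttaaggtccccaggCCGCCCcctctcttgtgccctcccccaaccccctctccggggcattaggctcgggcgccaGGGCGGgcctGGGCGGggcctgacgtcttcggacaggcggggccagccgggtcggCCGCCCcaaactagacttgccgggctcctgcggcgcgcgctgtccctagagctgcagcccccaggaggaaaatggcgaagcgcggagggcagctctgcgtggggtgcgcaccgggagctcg
Hspg2: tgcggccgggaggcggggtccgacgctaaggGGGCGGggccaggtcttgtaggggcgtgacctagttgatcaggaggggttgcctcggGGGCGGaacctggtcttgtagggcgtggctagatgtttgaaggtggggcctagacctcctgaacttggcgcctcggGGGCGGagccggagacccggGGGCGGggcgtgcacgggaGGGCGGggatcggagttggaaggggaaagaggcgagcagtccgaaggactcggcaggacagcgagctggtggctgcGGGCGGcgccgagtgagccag
Lamc1: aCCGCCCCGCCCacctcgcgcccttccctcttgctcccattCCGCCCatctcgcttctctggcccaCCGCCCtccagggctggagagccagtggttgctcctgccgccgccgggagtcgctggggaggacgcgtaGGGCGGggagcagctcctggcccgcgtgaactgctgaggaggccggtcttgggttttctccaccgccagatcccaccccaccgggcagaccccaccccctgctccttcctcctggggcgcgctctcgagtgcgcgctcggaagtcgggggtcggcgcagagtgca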

How the data were processed

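The authors trimmed the reads, aligned them with TopHat2 and deposited FPKM per gene and rat, with 2 decimals and no replicates pooled. The genome named with the data is GRCh38, whereas genes carry rat Ensembl identifiers, and the annotation release is not given in the sources used here. From the deposited FPKM, 2 further columns of values were not used because they match no sample of the series. The libraries were checked for duplicates, and 0.866% to 2.54% of values above 0 were identical in a pair of rats.

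FPKM are not counts, so log2(FPKM + 0.1) was compared with limma 3.58.1 (trend) in R 4.3.3 for 14864 genes whose mean reached 0.1 FPKM, with Benjamini-Hochberg adjustment and limits of 0.05 and 2-fold. The filter used the mean over both groups, so a gene under it in the CL rats could pass through its FL values. The procedure was tested on simulated data. Alternatives were pseudocounts of 1 and 0.01, no filter or a mean from 1 FPKM upwards, median scaling over 9201 genes, quantile normalization, a constant or a robust prior variance in limma, no fold limit, and leaving out each rat. Tables and plots used Python 3.11.15 with numpy 2.4.6, pandas 2.3.3 and matplotlib 3.10.9. The members and lists were chosen with earlier results of these data known. Named genes were the members, all DEGs and the 2 most abundant genes of the other lists, and the 3 nearest profiles; further genes of the lists (Lama3, Dag1, Acta2 and those under the 2-fold limit or under the filter) were named after their values were seen. Some genes of the lists, and shares that rest on them, are not reported here.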

Additional observations from a re-analysis of the deposited data

How the results depend on the processing

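All 9 members kept a positive log2 fold change and stayed above the median of all genes in every alternative in which they were tested, and 0 were downregulated in any. Lama5 was not tested with a mean of at least 1 FPKM. The number of upregulated members, 5, became 2 with a pseudocount of 1, 3 with median scaling, 3 with quantile normalization and 4 with no filter, a mean of at least 1 FPKM or no trend, and ran from 1 to 7 when 1 rat was left out. It was 4 with only the 8 members matched by symbol, an alternative chosen after seeing the data, and 7 with no limit on the fold change. The cause was not tested.

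Counts of other lists moved as well. With quantile normalization upregulated linker genes went from 7 to 3, and median scaling gave 1 downregulated receptor gene. Upregulated heparan sulfate genes went from 2 to 0 with a pseudocount of 1, a mean of at least 1 FPKM or either scaling, and to 1 with a pseudocount of 0.01, no filter or no trend. The single upregulated endothelial, smooth muscle and cycling markers went to 0 with a pseudocount of 1 and with either scaling, as did the endothelial without trend, the smooth muscle with no filter or a mean of at least 1 FPKM, and the cycling one with no filter, no trend or a robust prior. No paired analysis was possible because the groups share only 1 rat number (5) and the rats are different animals.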
